A study of Mus musculus with 20 samples.

Results

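Messenger RNA of 5 mitochondrial carrier genes was examined in whole mouse hearts. They are *Ucp2* and *Ucp3*, which encode uncoupling proteins, *Slc25a4* and *Slc25a5*, which encode the ADP/ATP carriers ANT1 and ANT2, and *Slc25a14*, which encodes a carrier related to the uncoupling proteins. They were picked by name out of the 23420 genes of the count table, and all 5 were among the 13590 genes with enough reads to be tested. The set was chosen on the comparison of the diets, because *Ucp2* differed very consistently between them. The difference between the diets is therefore given for these genes as a description, without a test. Hearts came from 10 mice on a control diet and 10 mice on an iron-deficient diet that produced anemia (IDA mice), all of them wild type C57BL/6 males (C57BL/6J in the study's methods) aged 9 weeks. The diets began at 3 weeks of age and lasted 6 weeks, and for the iron content of the deficient diet the labels disagree, with one field putting it under 2 ppm and another over it. The study's methods give a range for it that starts at 2 ppm, and describe the control diet as iron-adjusted.

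The members belong to the SLC25 family, whose proteins sit in the inner mitochondrial membrane and pass metabolites between the matrix and the cytosol. ADP/ATP carriers take ADP into the matrix and bring newly made ATP out, which makes them indispensable in a tissue that lives on oxidative phosphorylation, and ANT1 is the main form in heart and skeletal muscle. UCP1 of brown fat dissipates the proton gradient as heat. UCP2 and UCP3 resemble it in sequence but are not thought to make heat in the heart. UCP3 belongs to muscle and brown fat and responds to fatty acids through PPARα, whereas UCP2 is made in many tissues and is plentiful in immune cells.

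Between 6682177 and 8960688 read pairs were counted per heart, with a median of 7902932 in control and 6806177 in IDA mice. All 20 hearts were kept here. The study had dropped a contaminated mouse per group without saying which. Cardiomyocyte markers were high throughout, with summed levels of 5826 to 6932 CPM (counts scaled to the library's total) in control and 5357 to 7222 CPM in IDA hearts. Blood cell transcripts were higher in IDA hearts. The erythroid markers summed to 117 to 182 CPM in control and 178 to 653 CPM in IDA hearts, although *Hba-a1*, *Hba-a2* and *Hbb-b2* had no count in any heart, and the platelet markers summed to 35.4 to 111 and 84.1 to 392 CPM. The leukocyte markers summed to 717 to 831 CPM in control and 691 to 998 CPM in IDA hearts. In tissue of mixed cells, a change in the number of cells of a type and a change in the RNA of each cell cannot be told apart.

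With edgeR's quasi-likelihood test and a threshold of 0.05 on the adjusted p, 67.5% of all tested genes were called different between the diets, 35.0% as higher and 32.5% as lower in IDA hearts. Of the 5 members, 2 (*Ucp2* and *Slc25a5*) were on the higher side and 0 on the lower side. Nothing is read from this count, since the comparison of diets is what selected the genes.

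*Ucp2* (chromosome 7 of mm10, 100493345 to 100502173, plus strand, 8 exons) had the clearest separation. Its level in control hearts ran from 128 CPM over a median of 142 CPM to 154 CPM. In IDA hearts it ran from 182 CPM over a median of 205 CPM to 236.1 CPM. Every IDA heart lay above every control heart, and the spread within each diet was small. The means were 143 ± 9.97 CPM (SD, n = 10) and 204 ± 15.8 CPM (SD, n = 10), a log2 fold change of 0.52 with a standard error of 0.05. A separation this complete toward higher values in IDA hearts was seen in 675 tested genes, or 4.97% of them. The size of the difference stood at percentile 80.03 of the absolute log2 fold changes of all tested genes.

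**Figure D1:**
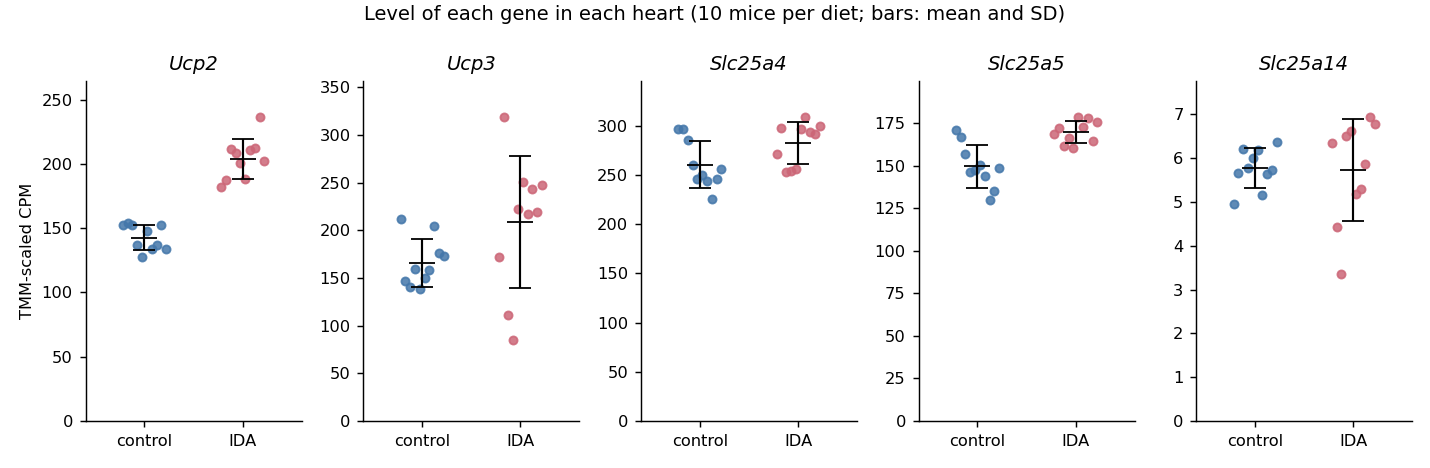
Level of each of the 5 genes in TMM-scaled CPM (vertical axis, starting at 0) in control and IDA hearts. Each point is 1 mouse, and the bars show the mean and SD of 10 mice. All *Ucp2* points of IDA mice are above all those of control mice, whereas the diets overlap in the other 4 genes, and 2 IDA hearts have the lowest *Ucp3* levels of all.

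The separation of *Ucp2* was already present in the read pairs as deposited, before any scaling. Control hearts held 1019 to 1223 read pairs and IDA hearts 1267 to 1704, although the IDA libraries were the smaller ones. The sample columns carry 2 runs of library numbers. Since the separation was complete over all hearts, it had to hold within each run, and the values are given as a description. In the lower run, 5 control hearts reached at most 152 CPM and 7 IDA hearts at least 188 CPM. In the higher run, 5 control hearts reached at most 154 CPM and 3 IDA hearts at least 182 CPM. The log2 fold change was 0.48 and 0.49 when the erythroid or the leukocyte marker mean entered the fit, and over all 36 alternatives it lay between 0.43 and 0.70.

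Within a diet, no relation of *Ucp2* with blood cell markers passed the adjusted threshold. The erythroid marker mean gave r = -0.17 and rho = 0.04 in control hearts and r = 0.23 and rho = -0.02 in IDA hearts (two-sided permutation test, p = 0.627, 0.918, 0.528 and 0.972, adjusted 0.865, 0.973, 0.865 and 0.973 over 50 relations), with r = 0.07 and 0.39 without the 2 hearts farthest from the median. In control hearts, *Ucp2* and the mean of the leukocyte markers gave r = 0.73 and rho = 0.66 (permutation p = 0.0206 and 0.0443, adjusted 0.103 and 0.181), and r = 0.82 without the 2 hearts farthest from the median. In IDA hearts the same relation gave r = -0.13 and rho = -0.25 (permutation p = 0.726 and 0.489, adjusted 0.865 and 0.822), and r = -0.26 without the 2 farthest hearts. The part of leukocytes in the *Ucp2* difference was not tested further.

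Across the 20 hearts the genes with levels most like *Ucp2* were *S100a11* (r = 0.93), a calcium-binding protein, *Eng* (r = 0.93), the endoglin of endothelial cells, *Gpx1* (r = 0.93), a peroxide-reducing enzyme, *Tmem234* (r = 0.92) and *Prpsap1* (r = 0.91). These values contain the difference between the diets. Once the diet means were taken out, the most similar genes were *Ccdc80* (r = 0.76), *Bgn* (r = 0.73), which encodes the matrix proteoglycan biglycan, and *Atp2a1* (r = 0.73), a calcium pump of fast muscle. The points of each r share a library and its depth.

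*Ucp3* (chromosome 7, 100472991 to 100486432, plus strand, 7 exons) ends 6912 bases before *Ucp2* begins, on the same strand. The stretches just before these neighbouring genes are shown as a description. Whether their letters have a part in the levels of the genes, or in the spread among mice, was not tested. The sequences are RefSeq promoter entries (GRCm38.p6, plus strand), from chr7:100493108-100493344 for *Ucp2* and from chr7:100472741-100472990 for *Ucp3*. They stop at the first base before the gene in the deposited annotation. Capitals mark every match, on either strand, to AGGTCA, the motif that PPARα and other nuclear receptors share, and to ACGTG or GCGTG, the core of the hypoxia-response motif. Neither motif overlaps the other here.

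Ucp2: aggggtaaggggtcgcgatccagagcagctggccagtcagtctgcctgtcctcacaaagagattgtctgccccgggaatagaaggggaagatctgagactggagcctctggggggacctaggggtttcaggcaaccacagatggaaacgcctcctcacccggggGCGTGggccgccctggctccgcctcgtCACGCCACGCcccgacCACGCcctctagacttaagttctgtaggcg

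Ucp3: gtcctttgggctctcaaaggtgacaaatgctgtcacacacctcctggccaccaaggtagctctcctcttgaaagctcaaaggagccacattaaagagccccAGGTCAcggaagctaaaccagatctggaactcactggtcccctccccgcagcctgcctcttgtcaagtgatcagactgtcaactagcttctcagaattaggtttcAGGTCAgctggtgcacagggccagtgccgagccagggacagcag

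The stretch before *Ucp3* held 2 copies of AGGTCA and 0 hypoxia cores, and the one before *Ucp2* held 4 hypoxia cores and 0 copies of AGGTCA. Their GC contents were 54.8% and 63.3%. Of 32851 RefSeq promoter entries, searched over the 250 bases before the start, 14.02% held AGGTCA at least once and 1.36% at least 2 times. A hypoxia core was held by 38.6% of entries, and at least 4 of them by 2.58%. Neither motif was found before *Slc25a4*, and 1 hypoxia core was found before *Slc25a5*. The 3 overlapping entries of *Slc25a14* held 2, 4 and 2 hypoxia cores and 0 copies of AGGTCA. In the last of them, 94 of the 250 bases searched lay inside the annotated gene and were not trimmed. These are matches of letters and say nothing of whether a factor was bound.

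*Ucp3* was the member that varied most from heart to heart. Control hearts ran from 138 CPM over a median of 159 CPM to 211 CPM. IDA hearts ran from 85.0 CPM over a median of 221 CPM to 318 CPM. The diets overlapped in a particular way. Of the IDA hearts, 7 lay above the highest control heart and 2 below the lowest one, IDA mice 4 (85.0 CPM) and 3 (111 CPM). The means were 166 ± 25.3 CPM (SD, n = 10) and 209 ± 69.3 CPM (SD, n = 10), with a log2 fold change of 0.33 and a standard error of 0.16. The coefficient of variation was 15.3% among control and 33.2% among IDA hearts, against 6.99% and 7.74% for *Ucp2*.

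IDA mice 3 and 4 were also among the 4 hearts with over 1 CPM of *Ucp1*, the brown fat gene, which reached 6.21 CPM in IDA mouse 3, 4.19 CPM in control mouse 3, 2.12 CPM in IDA mouse 4 and 1.87 CPM in IDA mouse 5. The summed adipocyte markers overlapped between the diets, at 135 to 188 CPM in control and 152 to 184 CPM in IDA hearts. Most of this sum came from *Slc36a2* and *Cidea* in both diets. The adipocyte marker mean (log2 CPM) left out *Slc36a2* and *Cidea*. It was higher in the 4 hearts with over 1 CPM of *Ucp1* than in any other. It was 2.48 in control mouse 3, and 1.77, 1.76 and 1.65 in IDA mice 3, 4 and 5. The next highest was 1.19, in control mouse 2. *Ucp1* is itself on the list of adipocyte markers and was kept in this mean. Without these 4 hearts the *Ucp3* means were 169 ± 25.2 CPM (SD, n = 9) and 238.5 ± 44.6 CPM (SD, n = 7), with a log2 fold change of 0.50, and *Ucp2* stayed at 0.52. Over all alternatives the log2 fold change of *Ucp3* lay between 0.17, with library size as a covariate, and 0.56, with the leukocyte marker mean as a covariate. Leaving out a single heart gave 0.24 without IDA mouse 2 and 0.42 without IDA mouse 4. Whether fat on the hearts has a part in the low *Ucp3* values was not tested.

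The genes whose deviations from the diet means were most like those of *Ucp3* were *Ehhadh* (r = 0.92), a peroxisomal enzyme of fatty acid oxidation, *Hbp1* (r = 0.88), a transcriptional repressor, and *Zfp68* (r = 0.88). *Ehhadh* is a known target of PPARα. The list of fatty acid and PPARα target genes was therefore compared, a step added after that value was seen. All of its 27 genes had a positive r with *Ucp3*, from 0.41 to 0.87 with a median of 0.55, where the median over all tested genes was 0.09. The highest were *Acot2* (0.87), *Pdk4* (0.86) and *Acot1* (0.84), which encode thioesterases of acyl-CoA and the kinase that shuts pyruvate dehydrogenase. Over the same list the median r was 0.19 for *Ucp2*, 0.91 for *Slc25a4*, 0.74 for *Slc25a5* and 0.01 for *Slc25a14*, which puts *Slc25a4* and *Slc25a5* above *Ucp3*.

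The likeness to *Ucp3* differed between the diets and was weaker without the 4 hearts with over 1 CPM of *Ucp1*. IDA mice 4 and 3 had the lowest levels of *Ehhadh*, *Acot2*, *Pdk4* and *Acot1* among IDA hearts, in that order. The likeness without these IDA mice alone was not tested. Among the 10 IDA hearts alone, r with *Ucp3* exceeded 0.5 for 27 of 27 list genes, against 19.8% of all tested genes. Among the 10 control hearts it did so for 2 of 27, against 5.24% of all tested genes. For *Ucp2* the order was the reverse. In IDA hearts 0 of 27 list genes were over 0.5, against 4.15% of all tested genes. In control hearts 17 of 27 were, against 14.1% of all tested genes. For *Slc25a4* it was 27 of 27 in IDA hearts, against 21.6% of all tested genes, and 20 of 27 in control hearts, against 19.6%. For *Slc25a5* it was 22 of 27 in IDA hearts, against 20.5%, and 20 of 27 in control hearts, against 22.8%. Without the 4 hearts that had over 1 CPM of *Ucp1*, r with *Ucp3* was 0.84 for *Ehhadh*, 0.76 for *Pdk4*, 0.59 for *Acot2* and 0.49 for *Acot1* (16 hearts). The median r of the list with *Ucp3* was then 0.23, and 4 of 27 genes exceeded 0.5, against 5.14% of all tested genes. Over all 20 hearts 20 of 27 had done so, against 9.15% of all tested genes. The points share libraries, and list genes with dense reads also move with library size. In control hearts *Ucp2* itself gave r = -0.70 with library size (permutation test, adjusted p = 0.148 over 50 relations).

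**Figure D2:**
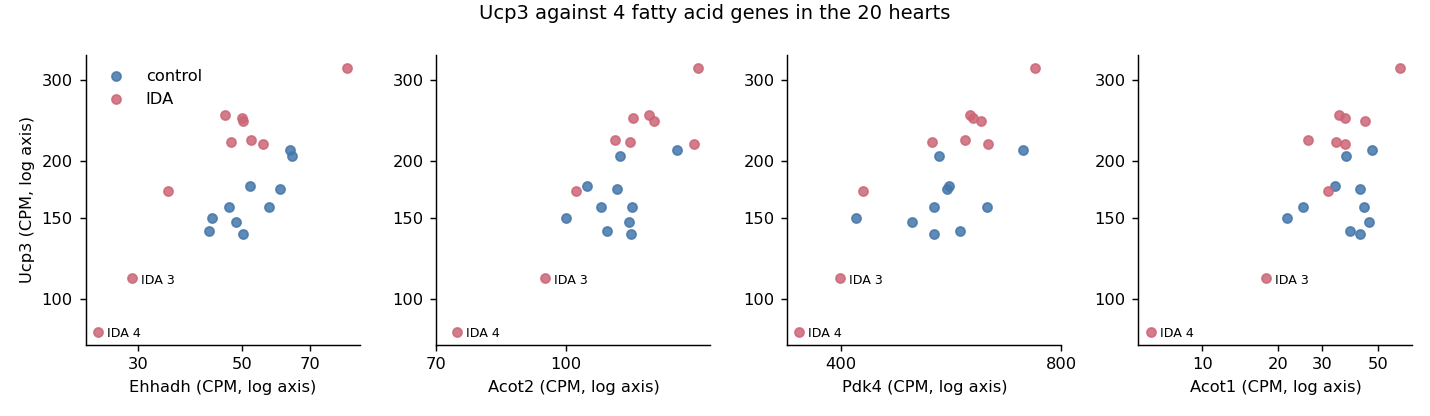
*Ucp3* (vertical axis) against *Ehhadh*, *Acot2*, *Pdk4* and *Acot1* (horizontal axes), all in CPM on log axes, with 1 point per mouse in each of 20 hearts. IDA mice 3 and 4 are at the low end of *Ucp3* in every panel, at 111 and 85.0 CPM.

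*Slc25a4* (chromosome 8, 46207341 to 46211009, minus strand, 4 exons), the ADP/ATP carrier of heart muscle, was the most abundant member per length of transcript. Control hearts had 226 CPM at the lowest, 253.1 CPM at the median and 297 CPM at the highest. IDA hearts had 253.4 CPM at the lowest, 293 CPM at the median and 309 CPM at the highest. The diets overlapped widely, with 3 IDA hearts above the highest control heart. The means were 261 ± 24.3 CPM and 282 ± 21.4 CPM (SD, n = 10 each), a log2 fold change of 0.12 with a standard error of 0.05 that became -0.21 under a correction for gene length.

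The read pairs behind these levels hardly moved. All 20 hearts had between 1973 and 2051 read pairs on *Slc25a4*, a ratio of 1.04 between the extremes, while the libraries differed by a factor of 1.34. Their variance was 0.11 times the mean in control and 0.27 times the mean in IDA hearts, less than counting at random would leave. The authors removed duplicate read pairs before counting, which limits how many distinct read pairs a transcript of given length can hold. *Slc25a4* held 1.81 read pairs per exonic base on average, the 6th highest density of 13590 genes, where the densest gene of a heart reached 2.06 to 2.39. Its CPM followed the size of the library in reverse, with r = -0.99 and rho = -0.98 in control hearts (two-sided permutation test, p = 3e-05 and 4e-05, adjusted 0.0015 and 0.002 over 50 relations) and r = -0.96 and rho = -0.85 in IDA hearts (permutation p = 0.00014 and 0.00302, adjusted 0.00175 and 0.045). Without the 2 hearts farthest from the median library, r was -0.98 in both diets. Within the lower run of library numbers, 7 IDA hearts gave r = -0.95 (exact permutation test, p = 0.0121), and the other runs held too few hearts of a diet.

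The genes most like *Slc25a4* shared this property. They were *Atp5b* and *Atp5a1*, which encode subunits of ATP synthase, and *Mb*, the oxygen store myoglobin, each with r = 1.00 for the deviations from the diet means. They held 1.63, 1.54 and 1.44 read pairs per exonic base, and their read pairs also varied by only 1.04 times between hearts. The median log2 fold change of the 270 tested genes with at least 1 read pair per exonic base was 0.15, against 0.02 for all tested genes. The part of duplicate removal in the values of *Slc25a4* was not tested, and its difference between the diets cannot be told apart from the difference in library size.

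**Figure D3:**
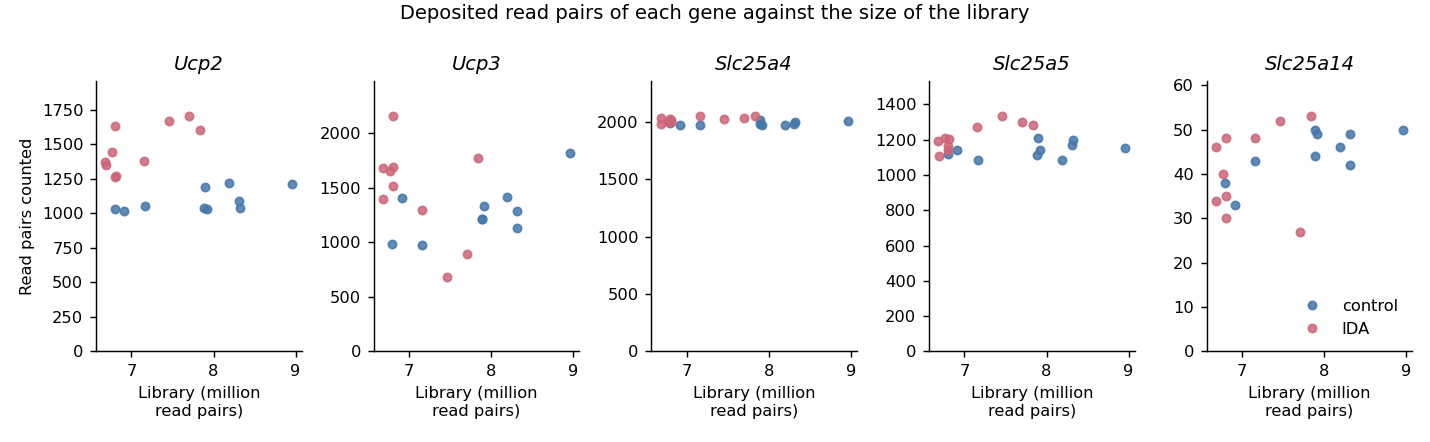
Deposited read pairs of each of the 5 genes (vertical axis, starting at 0) against the library size of its mouse (horizontal axis), with 1 point per mouse. *Slc25a4* forms a flat line between 1973 and 2051 read pairs, whereas all *Ucp2* points of IDA mice lie above those of control mice. Of the control libraries, 7 are larger than every IDA library.

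*Slc25a5* (chromosome X, 36795652 to 36798806, plus strand, 4 exons), the ADP/ATP carrier of most other tissues, stood between these patterns. Control hearts had 130 to 171 CPM with a median of 148 CPM, and IDA hearts had 161 to 178 CPM with a median of 170 CPM. All 10 IDA hearts lay above the control mean, 5 of them above the highest control heart. The means were 150 ± 12.7 CPM and 170 ± 6.50 CPM (SD, n = 10 each), with a log2 fold change of 0.18 and a standard error of 0.04. This direction depended on the processing. It was 0.10 without scaling to library size, 0.37 with scaling factors from genes of low read density, and it turned to -0.12 with a correction for gene length and to -0.07 with one for length and GC content.

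At 0.95 read pairs per exonic base, *Slc25a5* was the 311th densest gene. Its read pairs lay between 1084 and 1333, and in CPM it also followed library size in reverse, with r = -0.94 and rho = -0.84 in control hearts (permutation p = 0.0001 and 0.0036, adjusted 0.00175 and 0.045, and r = -0.86 without the 2 hearts farthest from the median). In IDA hearts r was -0.82 and rho -0.68 (permutation p = 0.0053 and 0.0345, adjusted 0.0442 and 0.172), falling to r = -0.57 without the 2 farthest hearts, so that relation rested on them. Within the lower run of library numbers it was r = -0.76 in 7 IDA hearts (exact permutation test, p = 0.0458). *Slc25a5* and *Slc25a4* also moved together among control hearts, with r = 0.93 and rho = 0.85 (permutation p = 0.00013 and 0.00299, adjusted 0.00175 and 0.045) and r = 0.84 without the 2 farthest hearts. After the diet means were removed, *Slc25a5* was most like *Ndufa12* (r = 0.95), a complex I subunit, *Hspb8* (r = 0.95), a small heat shock protein, and *Tmed2* (r = 0.94). A processed pseudogene of *Slc25a5* exists in the mouse annotation, and whether reads were split between the copies was not tested.

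*Slc25a14* (chromosome X, 48623580 to 48662294, plus strand, 11 exons), also known as brain mitochondrial carrier protein, was scarce in the heart. Control hearts had 4.95 to 6.37 CPM with a median of 5.75 CPM, and IDA hearts had 3.36 to 6.93 CPM with a median of 6.11 CPM. The diets overlapped, with IDA hearts both above and below all control hearts. The log2 fold change was -0.01 with a standard error of 0.11, from 27 to 53 read pairs per heart.

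Per kilobase of exon the order was *Slc25a4*, *Slc25a5*, *Ucp3*, *Ucp2* and *Slc25a14* by the mean of either diet. The distance of *Ucp3* from *Ucp2* depends on the annotated lengths. These are 2448 exonic bases for *Ucp3* and 4133 for *Ucp2*, whose longest exon has 2938. Before division by length, mean levels of *Ucp3* and *Ucp2* were 166 and 143 CPM in control and 209 and 204 CPM in IDA hearts. In control hearts the means were 235.7, 121, 67.8, 34.5 and 3.27 CPM per kb, and every heart held this order. In IDA hearts they were 255.2, 137, 85.3, 49.3 and 3.24 CPM per kb. *Ucp3* and *Ucp2* were the neighbours that did not keep apart there, since 8 of 10 IDA hearts held more *Ucp3* per kb than *Ucp2*. *Slc25a5* exceeded *Ucp3* in all 10 IDA hearts. The ratio of *Slc25a4* to *Slc25a5* had a median of 1.94 in control and 1.85 in IDA hearts. Since the read pairs of *Slc25a4* hardly moved with library size, its level per kb depends on depth.

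**Figure D4:**
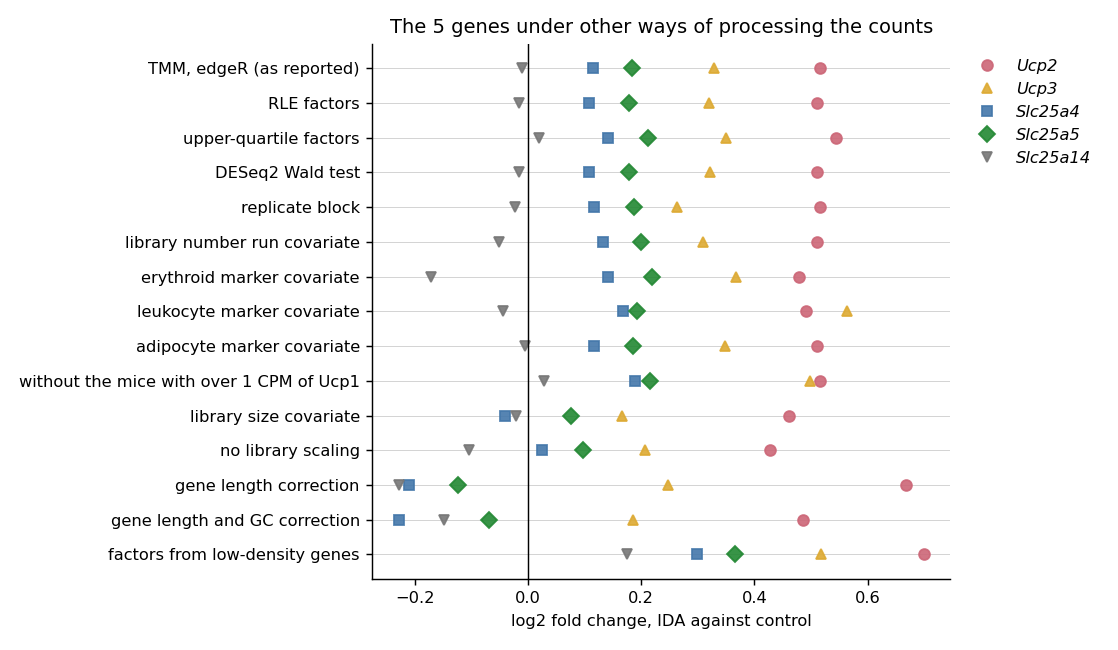
Log2 fold change of the 5 genes, IDA against control (horizontal axis), under the reported fit and its alternatives (rows). *Ucp2* and *Ucp3* stay to the right of 0 in every row shown, whereas *Slc25a4*, *Slc25a5* and *Slc25a14* lie on either side of 0 depending on the row.

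Of the nearest relatives of the members, the uncoupling-protein-like carriers *Slc25a30* and *Slc25a27* fell in IDA hearts. *Slc25a30*, known as kidney mitochondrial carrier protein, went from 13.6 ± 2.25 CPM in control to 6.84 ± 2.37 CPM in IDA hearts (SD, n = 10 each), a log2 fold change of -0.99 with a standard error of 0.17 (quasi-likelihood test of edgeR, adjusted p = 2.18e-05). Of the IDA hearts, 7 lay below the lowest control heart. *Slc25a27*, a carrier of brain, went from 10.2 ± 2.20 to 7.45 ± 1.70 CPM, a log2 fold change of -0.47 (adjusted p = 0.00628) that was not called in 4 alternatives, at -0.17 with the leukocyte and -0.32 with the erythroid marker mean as a covariate, -0.27 with scaling factors from genes of low read density and -0.30 without the 4 hearts with over 1 CPM of *Ucp1*. *Slc25a31*, the ADP/ATP carrier of the testis, stood at 0.97 ± 0.38 and 1.096 ± 0.90 CPM, with a log2 fold change of 0.15 (adjusted p = 0.707). *Ucp1* had too few reads to be tested.

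Lists of genes around the members are set against all tested genes, of which 35.0% were higher and 32.5% lower in IDA hearts, with a median log2 fold change of 0.02. Among the other carriers of the SLC25 family, 39 of 47 were tested, and 17 rose and 12 fell in IDA hearts, with a median log2 fold change of 0.09. Those that rose most were *Slc25a47* (0.54), a carrier best known in liver, *Slc25a1* (0.52), the citrate carrier, and *Slc25a25* (0.48), a calcium-regulated carrier of ATP-Mg and phosphate. Those that fell most, after *Slc25a30*, were *Slc25a36* (-0.86), a pyrimidine nucleotide carrier, and *Slc25a32* (-0.74), a carrier of folate and FAD. In edgeR's quasi-likelihood test the adjusted p-values of these genes lay between 3.16e-06 and 0.0336. With the correction for length and GC content, *Slc25a47* was at 0.15 and *Slc25a1* at 0.11, and neither was called. *Slc25a1* was also not called with the erythroid (0.37) or the leukocyte marker mean (0.20) as a covariate. The call of *Slc25a25* was lost when any of 7 single hearts was left out, and *Slc25a25* turned to -0.076 with the leukocyte marker mean as a covariate.

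The machinery that feeds and drains the ADP/ATP carriers was mostly higher in IDA hearts as the counts stand. Of 19 ATP synthase genes, 15 rose and 0 fell, with a median log2 fold change of 0.18. The largest were *Atp5l* (0.55), *Usmg5* (0.31) and *Atpif1* (0.28), the latter an inhibitor of the enzyme. With the correction for gene length, 0 rose and 11 fell, and the median became -0.18. Of the partners that use exported ATP or sit beside the carriers, 15 of 16 were tested, and 11 rose and 1 fell (median 0.15). They included *Tspo* (0.54), a protein of the outer mitochondrial membrane, and *Ckb* (0.52), the brain form of creatine kinase, which were at 0.012 and 0.045 and no longer called with the correction for length and GC content. *Hk2* (-0.17), the hexokinase that binds mitochondria, fell, but reached 0.12 with the correction for gene length. After that correction 6 rose and 0 fell. By edgeR's quasi-likelihood test, no named gene of these groups had an adjusted p above 0.000744.

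Of the 27 fatty acid and PPARα target genes, 11 rose and 2 fell, with a median log2 fold change of 0.11. *Angptl4* (0.85), an inhibitor of lipoprotein lipase, *Plin5* (0.28) and *Plin2* (0.28), which coat lipid droplets, rose most. *Cpt1a* (-0.37), the liver form of the enzyme that admits fatty acids to mitochondria, and *Acsl1* (-0.14), which activates fatty acids, fell. The call of *Acsl1* was lost when any of 7 single hearts was left out. With the correction for gene length, 4 rose and 3 fell, *Plin5* and *Plin2* were no longer called, and the median was -0.06. *Angptl4*, whose r with *Ucp3* was 0.76 over the 20 hearts, kept a log2 fold change of 0.66 there. In edgeR's quasi-likelihood test these 5 genes had adjusted p-values from 1.47e-05 to 0.0385.

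Of 24 genes for regulators of the uncoupling genes and of mitochondrial biogenesis, 6 rose and 11 fell, with a median of -0.07. *Foxo3* (-1.14), a transcription factor of stress and fasting, *Esrrg* (-0.998), an estrogen-related receptor that drives oxidative genes, and *Thrb* (-0.79), a thyroid hormone receptor, fell most. *Nr1h3* (0.44), which encodes LXRα, *Rxrb* (0.39), a partner receptor, and *Sirt3* (0.28), the mitochondrial deacetylase, rose most, of which *Sirt3* was not called with the correction for gene length and *Rxrb* (0.05) not with that for length and GC content. *Ppara*, named here after its values were seen because it regulates *Ucp3*, fell from 277 ± 23.6 to 184 ± 36.9 CPM (SD, n = 10 each), a log2 fold change of -0.59 (adjusted p = 7.24e-06), which was -0.15 and not called with the correction for gene length. Of the 10 IDA hearts, 0 were above the control mean of *Ppara*. In deviations from the diet means, its r with *Ucp3* was 0.53 over 20 hearts. That r was 0.61 in IDA hearts, 0.04 in control hearts and 0.12 without the 4 hearts with over 1 CPM of *Ucp1*. Whether *Ppara* has a part in the *Ucp3* levels was not tested. The adjusted p-values of the 6 genes named before *Ppara* lay between 4.98e-07 and 5.28e-05 in edgeR's quasi-likelihood test.

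**Figure D5:**
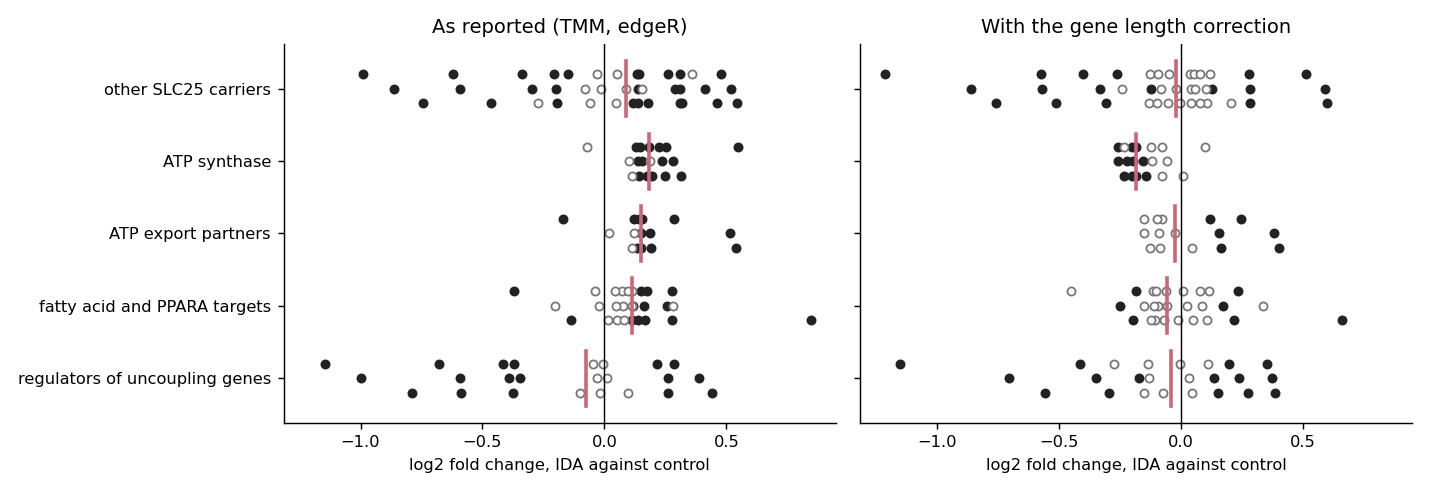
Log2 fold change, IDA against control (horizontal axis), of each tested gene of 5 lists (rows), without correction (left) and with the correction for gene length (right). Filled points passed an adjusted p of 0.05 and open points did not, and the bar is the median of the list. ATP synthase genes lie to the right of 0 on the left, with a median of 0.18, and mostly to its left on the right, with a median of -0.18.

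In the family of 50 relations among mice of a diet, 6 had an adjusted p below 0.05, and none of them involved *Ucp2*, *Ucp3* or *Slc25a14*. The remaining one, beside the 5 given above, was between *Slc25a4* and the leukocyte marker mean in IDA hearts, with r = -0.88 and rho = -0.77 (permutation p = 0.00076 and 0.0126, adjusted 0.0076 and 0.105), r = -0.76 without the 2 farthest hearts and r = -0.97 in the 7 hearts of the lower run (exact permutation p = 0.00933). IDA mice 3, 4 and 5 had the highest leukocyte marker means of the IDA hearts (4.81, 5.08 and 5.11). They also had the largest libraries of that diet (7702288, 7459363 and 7833916 read pairs). The relation of *Slc25a4* with leukocyte markers was not tested apart from library size. Between *Ucp2* and *Ucp3*, r was 0.11 and rho 0.25 in control hearts (permutation p = 0.753 and 0.493, adjusted 0.875 and 0.822). In IDA hearts r was -0.22 and rho -0.31 (permutation p = 0.533 and 0.387, adjusted 0.865 and 0.805). Without the 2 farthest hearts r was -0.02 and -0.57. The neighbouring genes thus showed no relation among mice of a diet that passed the adjusted threshold.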

How the data were processed

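Polyadenylated RNA, selected from the total RNA of 20 snap-frozen, crushed hearts (10 control and 10 IDA), was sequenced. Alignment to mm10 (STAR), removal of duplicate read pairs and unstranded counting of read pairs over the exons of each gene symbol (featureCounts 1.4.5-p1) were done by the authors, who deposited the raw counts. Diets were taken from the labels, and 0 columns were left unmatched. Of 23420 gene names, 27 had become dates and 2 were duplicated. Each mouse gave 1 library, and p-values measure the spread between these libraries.

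Testing covered the 13590 genes that reached 1 CPM, before TMM scaling, in 10 or more mice, and left out 9830. Counts were scaled by TMM and tested across all genes with edgeR (version 4.0.16) in R 4.3.3, with diet as the only factor and Benjamini-Hochberg adjustment. DESeq2 (version 1.42.0) was an alternative. Log2 CPM used a prior count of 2. The gene length correction entered, as offsets, a loess curve (span 0.5) of each mouse's deviations on log2 exonic length. GC content was known for 99.3% of tested genes. Relations between mice used 100000 resamples, in Python 3.11.15 with scipy 1.17.1. The steps were tested on simulated data. The labels do not say what a replicate number stands for, and mice were not treated as paired: deviations of same-numbered mice correlated between -0.28 and 0.26, above 0.1 in 3 of 10 pairs.

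The members and gene lists were chosen with earlier results of these data known. Named are the 5 members, their nearest relatives, up to 3 higher and 3 lower called genes of each list with the largest log2 fold change, for each member the 3 genes most like it after removal of the diet means, and for *Ucp2* also the 5 most like it overall. A gene that this rule names is not reported here. *Ppara* and the genes compared with *Ucp3* beyond that rule were added after the data were seen.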

Additional observations from a re-analysis of the deposited data

How the results depend on the processing

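Depth was lowest for *Slc25a14*, with 27 to 53 read pairs, and the part of read density in *Slc25a4* and *Slc25a5* was not tested. Labels name no extraction or sequencing batch, and the smaller IDA libraries cannot be told apart from the diet. Over 36 alternatives the log2 fold change lay between 0.43 and 0.70 for *Ucp2*, 0.17 and 0.56 for *Ucp3*, -0.23 and 0.30 for *Slc25a4*, -0.12 and 0.37 for *Slc25a5*, and -0.24 and 0.18 for *Slc25a14*. Leaving out 1 mouse at a time gave 0.49 to 0.53, 0.24 to 0.42, 0.08 to 0.14, 0.15 to 0.21, and -0.04 to 0.06, in the same order. RLE or upper-quartile factors, DESeq2 and dropping the low-count filter kept every count of calls within 1.5 times. The cause of the shifts below was not tested.

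With library size as a covariate, *Slc25a4* was at -0.042 and *Slc25a5* at 0.075, and 9 other SLC25 carriers, 6 ATP synthase genes, 5 ATP export partners and 3 fatty acid genes rose, while 2 partners and 6 fatty acid genes fell. With the erythroid marker mean, 11 SLC25 carriers and 6 fatty acid genes rose, and 1 fatty acid gene fell. With the leukocyte marker mean, 1 fatty acid gene fell and *Slc25a25* was at -0.076.

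With the gene length correction, *Ucp2* was at 0.67, *Slc25a4* at -0.21, *Slc25a5* at -0.12, *Atpif1* at -0.15, *Usmg5* at -0.14 and *Hk2* at 0.12. Then 7 SLC25 carriers, 0 ATP synthase genes, 6 partners and 4 fatty acid genes rose, 11 ATP synthase genes, 0 partners and 7 regulators fell, and 3 of 50 relations passed. The split of all calls was 3171 higher and 3701 lower, against 4761 and 4416. With length and GC content, 5521 genes were called (2422 higher, 3099 lower), *Slc25a4* was at -0.23, *Slc25a5* at -0.069, *Acsl1* at 0.13, *Atpif1* at -0.22, *Hk2* at 0.032, *Plin5* at -0.081 and *Usmg5* at -0.0068. Then 6 SLC25 carriers, 2 ATP synthase genes, 3 partners and 5 fatty acid genes rose, and 9 ATP synthase and 4 fatty acid genes fell.

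The labels do not say that a replicate number marks a shared litter or day, and 3 of 10 control mice correlated best with the IDA mouse of their own number. The replicate block gave 8912 calls (4584 higher, 4328 lower), 0.52 for *Ucp2*, 0.26 for *Ucp3*, and 1 fatty acid gene that fell, and it ended the calls of *Acsl1* and *Slc25a25* and of no other gene named in a list. The replicate block with the gene length correction gave 0.67 for *Ucp2*, -0.21 for *Slc25a4*, -0.12 for *Slc25a5*, -0.16 for *Atpif1*, -0.14 for *Usmg5* and 0.12 for *Hk2*, with 7 SLC25 carriers, 0 ATP synthase genes, 5 partners and 3 fatty acid genes that rose, and 9 ATP synthase genes, 0 partners and 7 regulators that fell.

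Alternatives chosen after seeing the data followed. Scaling factors from genes of low read density moved the median of all genes to 0.21 and the split to 6979 higher and 2815 lower. *Ucp2* was then at 0.70, *Slc25a4* at 0.30, *Slc25a5* at 0.37, *Acsl1* at 0.046 and *Hk2* at 0.015. Then 21 fatty acid genes and 12 regulators rose, and 5 SLC25 carriers, 0 partners and 1 fatty acid gene fell. Without scaling to library size, 2868 genes were higher and 4902 lower. With the run of library numbers as a covariate, 1 fatty acid gene fell. Without the 4 mice with over 1 CPM of *Ucp1*, 20 fatty acid genes rose, 1 fell, and *Slc25a25* was at -0.025. Leaving out 1 mouse at a time, 1 to 2 fatty acid genes fell, the count being 1 without control mice 1 to 4 or IDA mice 3, 4 or 10.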

Other observations

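*Slc25a14* was most like *Plekhn1* (r = 0.78), *4933439C10Rik* (r = 0.74) and *Mir126* (r = 0.72) in its deviations from the diet means over 20 hearts, all at a few CPM. The genes with the most opposite deviations were *Prdm1* for *Ucp2* (r = -0.78), a repressor of transcription in immune cells, *Tnfrsf23* for *Ucp3* (r = -0.86), a decoy receptor, *Dchs1* for *Slc25a4* (r = -0.86), a large cadherin, *Pik3c2b* for *Slc25a5* (r = -0.82), a lipid kinase, and *Ddx50* for *Slc25a14* (r = -0.73), an RNA helicase. The transcripts of *Dchs1* and *Pik3c2b* are long, at 10651 and 7929 exonic bases, where those of *Slc25a4* and *Slc25a5* have 1106 and 1238.

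In 10 relations of the members with the adipocyte marker mean, added after the data were seen, the strongest were those of *Slc25a4* (r = -0.72, rho = -0.41), *Slc25a5* (r = -0.69, rho = -0.59) and *Ucp3* (r = -0.65, rho = -0.48) in the 10 IDA hearts (permutation p = 0.0226, 0.0339 and 0.0405 for r, each adjusted to 0.135, and 0.246, 0.0808 and 0.167 for rho, adjusted to 0.614, 0.404 and 0.555). Without the 2 hearts farthest from the median they became r = -0.43, -0.58 and 0.01. This mean left out *Slc36a2* and *Cidea* and kept *Ucp1*.

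Slopes of the deposited read pairs on library size, on log2 scales, differed between genes, and several had wide standard errors (SE). The slope was 0.03 (SE 0.03) in control and 0.13 (SE 0.05) in IDA hearts for *Slc25a4*. For *Slc25a5* it was 0.17 (SE 0.14) and 0.84 (SE 0.19). It was 0.51 (SE 0.23) and 1.32 (SE 0.47) for *Ucp2*, and 1.18 (SE 0.34) and 0.65 (SE 1.37) for *Slc25a14*. For *Ucp3* it was 1.31 (SE 0.57) in control and -2.93 (SE 1.72) in IDA hearts.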
